A study of Drosophila melanogaster with 2 samples.

Results

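Chromatin immunoprecipitation with sequencing (ChIP-seq) mapped where the zinc finger protein CG17802, also called Nnk, lay on the genome of whole Drosophila melanogaster embryos. The intronic peaks far from promoters were the peaks of the reproducible set whose summit lay on 2L, 2R, 3L or 3R, more than 1000 bp from every annotated transcription start site (TSS), inside a gene and in no exon. They numbered 592 of the 3535 peaks in the set and of the 2865 on these 4 arms (20.7%, 95% Wilson interval 19.2 to 22.2%). Among peaks of the set the position alone chose them. The set itself held the strongest peaks of the pooled list, so every member had a signal above its floor of 109.8, and signal is compared above that floor only. The 2 libraries came from embryos 0 to 14 h old, of mixed sex, of 1 transgenic line that carries a fusion of CG17802 with eGFP at its C-terminal end. They form 1 group with no mutant, untagged or second line beside it, and the chromatin was sonicated to 200 to 800 bp. The labels name CG17802 as the antibody target and transcription factor ChIP-seq as the assay, although one label field calls the libraries an input control. Peaks from whole embryos mix all tissues and stages of that window, and the promoter that drives the fusion is not given in the sources used here.

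CG17802 belongs to the ZAD family of C2H2 zinc finger proteins, a large insect family of DNA-binding proteins that pair through a domain at their amino terminus. Introns of fly developmental genes are often long and hold enhancers, which loop to promoters to set where and when a gene is transcribed. A ChIP peak inside an intron records that the tagged protein was recovered with that DNA, directly or through another protein, and does not by itself name a regulated gene.

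The sequences at the strongest intronic summits of 2L, 3L and 3R are shown first, to let the letters under high signals be read against known promoter motifs. The stronger peaks of d4, CG17684 and Atf6 are named with their values further on but their letters are not shown, and the CG17684 peak does hold a DRE (TATCGATA, the site of the promoter factor DREF). Each stretch shown covers 60 bp on both sides of the summit on the plus strand of dm6, from the RefSeq sequence, and capitals mark matches to a pair of CGATA sites, the core bound by the insulator protein BEAF-32. The signal is the value the authors gave each peak, in units whose scale is not stated. The summits lay at chr3L:23258637-23258757 in nAChRalpha4 (signal 2555), chr3L:16769977-16770097 in Nrt (1482), chr2L:481040-481160 in ush (1305), chr3L:23580744-23580864 in AGO3 (1283), chr2L:6612670-6612790 in CG11050 (1233) and chr3L:14759446-14759566 in Trl (820.6). Nrt and AGO3 hold paired sites, and the stretches shown for the other 4 hold no match to a DRE, Motif 1, GAGA or paired CGATA.
nAChRalpha4: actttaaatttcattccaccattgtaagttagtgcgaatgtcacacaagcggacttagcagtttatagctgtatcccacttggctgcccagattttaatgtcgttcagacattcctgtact
Nrt: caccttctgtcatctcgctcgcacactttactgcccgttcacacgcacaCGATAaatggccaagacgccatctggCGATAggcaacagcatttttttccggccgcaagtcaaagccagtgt
ush: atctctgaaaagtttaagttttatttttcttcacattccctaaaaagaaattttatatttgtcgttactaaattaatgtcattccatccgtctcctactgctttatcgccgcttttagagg
AGO3: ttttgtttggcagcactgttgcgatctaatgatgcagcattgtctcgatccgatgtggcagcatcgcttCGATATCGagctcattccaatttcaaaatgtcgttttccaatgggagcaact
CG11050: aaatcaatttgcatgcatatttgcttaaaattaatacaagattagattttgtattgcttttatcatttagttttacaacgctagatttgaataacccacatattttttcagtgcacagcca
Trl: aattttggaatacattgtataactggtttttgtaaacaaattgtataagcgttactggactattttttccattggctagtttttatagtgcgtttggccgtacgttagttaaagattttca

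The next 4 are further members that hold a motif from the list searched, with the match in capitals and the stretch on the plus strand centred on the summit or, where the match lay too far out, on the match. They are a DRE in scro at chr3L:24733659-24733779 (signal 296.2), a Motif 1 match (GGTCACAC, a core promoter element) in Pzl at chr3R:3118007-3118127 (591.5), a GAGA repeat in a second AGO3 peak at chr3L:23589509-23589629 (457.6) and the leading 8-mer, read on the opposite strand, in the shared intron of aos and CG33158 at chr3L:16480592-16480712 (559.0).
scro: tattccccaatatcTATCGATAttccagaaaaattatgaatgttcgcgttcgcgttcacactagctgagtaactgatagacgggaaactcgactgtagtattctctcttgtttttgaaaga
Pzl: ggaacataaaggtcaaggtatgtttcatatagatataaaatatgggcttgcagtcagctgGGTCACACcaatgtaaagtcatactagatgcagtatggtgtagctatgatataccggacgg
AGO3, second peak: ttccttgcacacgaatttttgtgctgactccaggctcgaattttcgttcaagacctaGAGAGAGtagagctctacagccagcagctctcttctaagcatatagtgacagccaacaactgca
aos and CG33158: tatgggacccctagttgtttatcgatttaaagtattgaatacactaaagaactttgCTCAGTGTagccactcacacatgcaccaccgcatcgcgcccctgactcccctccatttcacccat

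The last set carries an 11-base word, CACTGAGAGAA, made by joining 8-mers that were common at intronic summits. The joined word, and the members named for it, were chosen after their values were seen. Here 6 members are lined up on it, each on the strand that carries it, with the word in capitals and 60 bases after it. They lie at chr3R:11849843-11849928 in CG6959 (minus strand), chr3L:4228291-4228376 in ImpL2 (plus), chr2L:2163665-2163750 in aop (minus), chr3R:23326397-23326482 in pnt (plus), chr3L:2162202-2162287 in CG15822 (minus) and chr3R:5518731-5518816 in the overlapping genes Itpr and Nmdar1 (minus). Each summit lies to the right of the word, between 8 and 80 bp from its middle.
CG6959: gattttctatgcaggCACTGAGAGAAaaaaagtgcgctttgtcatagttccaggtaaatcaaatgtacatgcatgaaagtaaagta
ImpL2: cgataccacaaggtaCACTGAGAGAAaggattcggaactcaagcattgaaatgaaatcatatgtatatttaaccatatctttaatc
aop: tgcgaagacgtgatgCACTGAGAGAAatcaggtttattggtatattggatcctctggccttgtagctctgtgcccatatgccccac
pnt: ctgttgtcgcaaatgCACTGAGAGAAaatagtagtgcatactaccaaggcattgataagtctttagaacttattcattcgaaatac
CG15822: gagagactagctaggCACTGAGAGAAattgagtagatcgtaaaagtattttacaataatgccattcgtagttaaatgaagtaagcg
Itpr and Nmdar1: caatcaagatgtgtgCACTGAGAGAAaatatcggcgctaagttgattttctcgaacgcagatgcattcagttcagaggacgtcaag

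Intronic peaks were about as dense as intergenic peaks away from promoters, denser than exonic ones and far sparser than peaks at promoters. Sequence that met the position rule covered 38.5 Mb (35.4% of the 4 arms) and held 15.4 intronic peaks per Mb, against 104.1 per Mb within 500 bp of a TSS and 13.7 per Mb in intergenic sequence more than 1000 bp from a TSS. Exons at the same distance from TSSs held 45 peaks, or 2.84 per Mb. The 4 arms carried between 13.7 peaks per Mb of such intron (3R) and 16.9 (2R). In the larger pooled list, which includes background, 8005 entries were intronic by the same rule and 592 of them were in the reproducible set (7.40%, interval 6.84 to 7.99%). That share was 24.9% at promoters and 7.03% in intergenic sequence, and 11.1% of all pooled entries on the 4 arms were in the reproducible set. The intronic share lies under that background, as the intergenic one does. Peaks are not samples, so no test between these classes was run, and the intervals cover counting error only.

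The signal of intronic peaks was moderate and had a short upper tail. The lowest, the median and the highest intronic peak had 109.9, 165.7 and 3300, against 109.9, 207.2 and 22500 at promoters and 109.8, 169.4 and 4931 in intergenic sequence. The 592 values overlapped those of both other classes over most of their range. The quartiles of intronic peaks were 129.4 and 242.3, against 143.4 and 375.3 at promoters and 133.8 and 261.8 in intergenic sequence. Promoter peaks parted most from the other classes among strong peaks. A signal over 500 was reached by 24 intronic peaks (4.05%), by 281 promoter peaks (18.0%) and by 32 intergenic peaks (8.18%). Over 1000 stood 9 intronic (1.52%), 142 promoter (9.08%) and 6 intergenic peaks (1.535%), so intronic and intergenic shares were alike there. Of the 100 strongest peaks of the whole set, 2 were intronic and 69 were promoter peaks on these arms. The intronic median was 0.800 of the promoter median, and the ratio was 0.807 and 0.793 in the lists of replicates 1 and 2 taken alone. Against intergenic peaks the ratio was 0.979, with 0.973 and 0.967 in the replicates, but it turned to 1.04 with a TSS distance of 2000 bp. In the pooled list the medians were 44.4 for intronic and 44.0 for intergenic entries, so no order of these 2 classes is given.

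**Figure D1:**
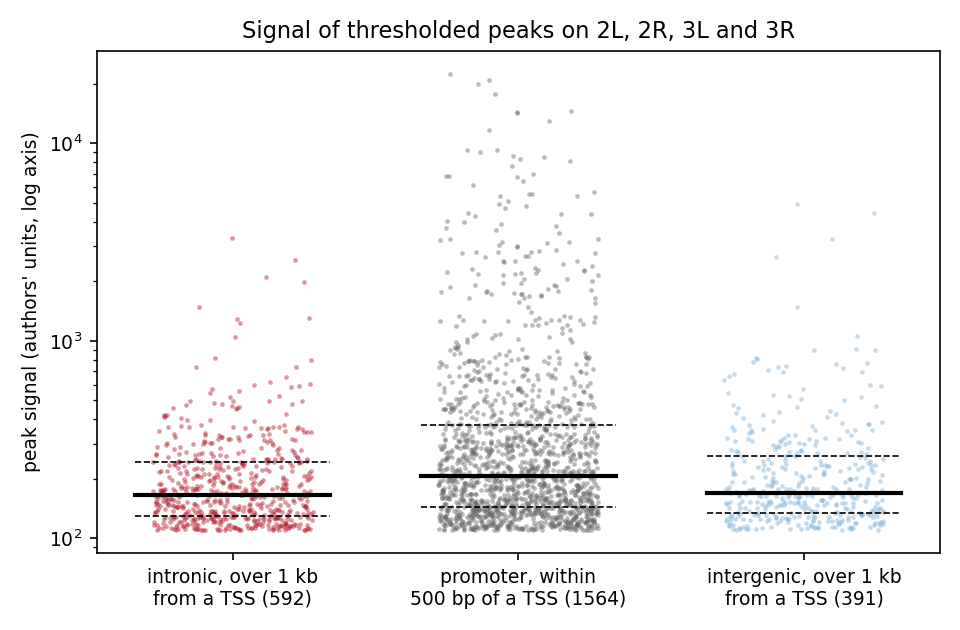
Signal of each thresholded peak on 2L, 2R, 3L and 3R (authors' units, log axis), for 592 intronic, 1564 promoter and 391 intergenic peaks; solid lines are medians and dashed lines are quartiles. The 3 clouds start at the same floor near 110, and the promoter cloud reaches 22500, against 3300 for the intronic one.

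The strongest intronic peaks sat in genes of unlike functions. The peak in d4, which encodes a PHD finger chromatin protein, had a signal of 3300 at chr2R:5260549-5260943, with 1179 in replicate 1 and 2125 in replicate 2, and ranked 63 in the whole set. It was followed by nAChRalpha4, an acetylcholine receptor subunit (808.6 and 1739), CG17684 (701.5 and 1409), Atf6, an endoplasmic reticulum stress factor (612.1 and 1376), and the cell adhesion gene Nrt (439.8 and 1044), each given for replicates 1 and 2. All of these lay above every weaker member in both replicates. Next came ush, a cofactor of GATA factors, at 309.8 and 1028, and AGO3, a piRNA pathway Argonaute, at 409.3 and 880.5, so the replicates ordered this pair differently. CG11050 had 307.7 and 944.5, and Scp1, a calcium-binding protein gene, had 326.7 and 722.9. These were the 9 members above a signal of 1000. Of the 9, d4, nAChRalpha4, CG17684, Atf6, AGO3 and Scp1 lay in the centromere-proximal segments of the arms, and Nrt, ush and CG11050 did not.

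The hosts of the intronic peaks ranked 10 to 20 also had unlike functions. The peak of Trl, which encodes GAGA factor, had a signal of 820.6, with 184.1 in replicate 1 and 639.9 in replicate 2. The intron shared by the nuclear receptor gene Hr3, CG12912 and CG46321 had 798.3, the kinase gene Pak3 739.8 and the corepressor gene sbb 733.8. The junction protein gene cno reached 621.6, trx, a histone H3K4 methyltransferase, 607.3, and the Piezo-like channel gene Pzl 591.5. The others were CG9837 (596.9), CG12769 (567.0) and the non-coding RNA genes lncRNA:CR46482 (657.5) and lncRNA:CR44810 (585.9). At the other end of the rule's distance limit, the members closest to it were peaks in Tsp97E (1002 bp from a TSS, signal 178.9), magu (1008 bp, 128.7) and Hsp83 (1011 bp, 325.5). The closest intronic peaks left out lay in Gyg with CG44245 (997 bp, 123.8), MFS17 (991 bp, 115.6) and Acsl (990 bp, 128.9).

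Nearly every intronic peak overlapped an entry in the lists of both replicates, each of 30000 entries that include background. Of the 592, 580 overlapped an entry of replicate 1 by at least 1 bp, 591 one of replicate 2, 579 both (97.8%) and 0 neither. The lowest signals of such entries were 14.9 in replicate 1 and 49.2 in replicate 2. The set was chosen for agreement between replicates, so this overlap describes the choice as well as the data. Among the 3535 strongest peaks of both replicate lists stood 377 members (63.7%), against 76.2% of promoter peaks and 68.5% of intergenic peaks. Over the 579 intronic peaks found in both, the 2 libraries' log10 signals correlated with r = 0.758 (Pearson), and their ranks with rho = 0.624 (Spearman). The peaks share 1 pair of libraries and are not independent replicates, so no p is given. The 12 members absent from the list of replicate 1 had signals from 110.2 to 200.2.

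**Figure D2:**
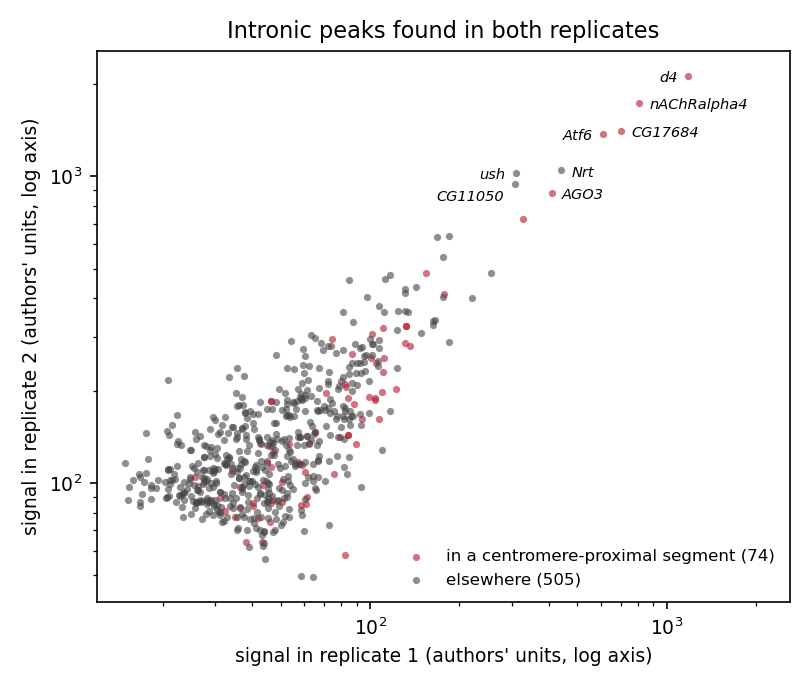
Signal in replicate 1 (x) and replicate 2 (y) of the 579 intronic peaks found in both lists (authors' units, log axes), with the 8 strongest hosts named. The points widen below about 100 in replicate 1, while the strongest peaks, led by d4 at 1179 and 2125, lie close to one line.

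The 592 peaks fell in 394 host genes, 382 protein-coding and 12 non-coding. A single gene held the summit for 565 peaks, and overlapping or nested genes meant that 25 peaks had 2 hosts and 2 had 3. One peak was found in 264 genes, 2 in 75, 3 in 33, 4 in 11, 5 in 7, 6 in 1, 7 in 1 and 8 in 2. Genes with 2 or more held 345 of the peaks (58.3%), and genes with 3 or more held 201 (33.95%). Of the 5791 genes on the 4 arms with any intron sequence beyond 1000 bp of a TSS, 6.80% hosted at least 1 peak and 2.24% hosted 2 or more. Peaks that shared a gene were seldom pieces of 1 broad region. Adjacent summits within a gene were a median of 5746 bp apart (227 pairs, from 200 to 598106 bp), and 29 pairs were closer than 1000 bp. Lone peaks had a median signal of 157.5 and peaks in genes with several had 174.5.

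The genes with the most peaks showed different spacings. nAChRalpha4 held 8 peaks over 41.8 kb, 1 of them at 2555 and the others between 111.3 and 395.9. Its peaks at 227.3 and 131.3 overlapped each other and were counted separately. sbb also held 8, of which 4 summits lay between 18.8 and 23.9 kb from the gene's 5′ end, with signals of 361.7, 733.8, 252.5 and 228.9. AGO3 held 7, in one stretch between 19.4 and 25.8% of the gene's length (1283, 419.3 and 457.6) and another between 86.3 and 99.6% (230.6, 116.3, 408.0 and 148.5). The AGO3 peaks at 230.6 and 116.3 also overlapped each other. ush held 6, with the strongest (1305) 4.88 kb from the gene's start and the other 5 between 115.2 and 227.5. In each of these 4 genes 1 peak had over 2 times the signal of the next.

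Of the 7 genes with 5 peaks, 4 are known for roles in transcription or protein turnover: rdx, which encodes a BTB adaptor of the Cul3 ubiquitin ligase (highest signal 390.3), and the transcription factor genes apt (265.4), shn (230.5) and jing (166.2). CG42342 (415.2), CG42238 (291.2) and the myosin gene Myo81F (357.6) were the others. Myo81F is a gene of 1966 kb in which peaks were sparse, at 0.257 per 100 kb of far intron. The densest of the 15 genes was Kdm2, a histone demethylase gene, with 4 peaks in 4.01 kb of far intron (194.6, 156.4, 366.4 and 263.5). Lrch, which encodes a leucine-rich repeat protein, had 4 peaks in 9.72 kb, tara, a transcriptional coregulator gene, 4 in 28.1 kb, and Scp1 4 in 32.7 kb. Just outside the 15, trx held 4 in 8.98 kb, with signals of 118.2, 133.4, 607.3 and 116.4.

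**Figure D3:**
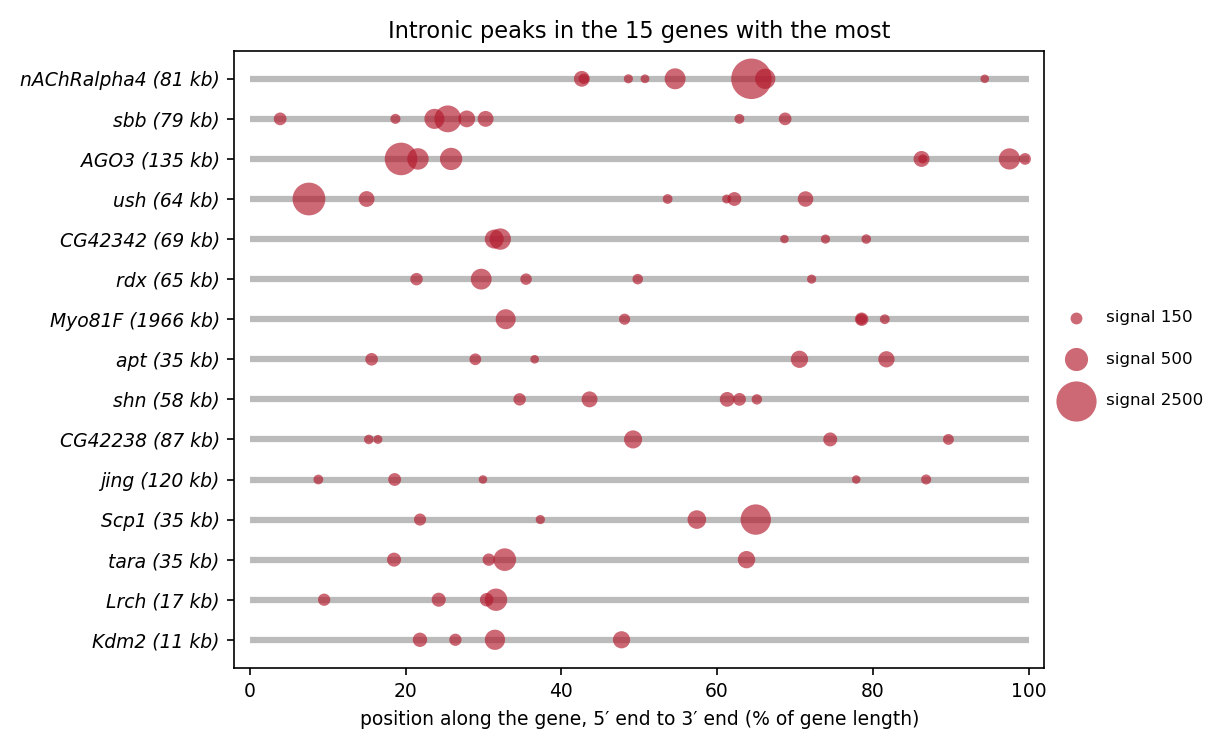
Positions of intronic peaks along the 15 genes with the most (x, percent of gene length from the 5′ end; gene length in parentheses; point area grows with signal). The 8 peaks of nAChRalpha4 lie in the 3′ part of the gene from 42.6% onward, while the strongest ush peak lies at 7.59% and the strongest AGO3 peak at 19.4%.

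Host genes were long. The median host had 16.1 kb of far intron, hosts of 2 or more peaks had 32.0 kb, and the median of all 5791 eligible genes was 0.567 kb. The share of genes that hosted a peak was 0.422% where far intron came to less than 1 kb, 15.01% between 5 and 10 kb and 49.7% above 50 kb. Per length the order differed. Peaks per Mb of far intron were 16.1 in genes with under 1 kb, highest at 26.8 in genes with 5 to 10 kb, and 10.9 in genes with over 50 kb. Of the 149 genes in that longest class, 74 held a peak and 45 held 2 or more.

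**Figure D4:**
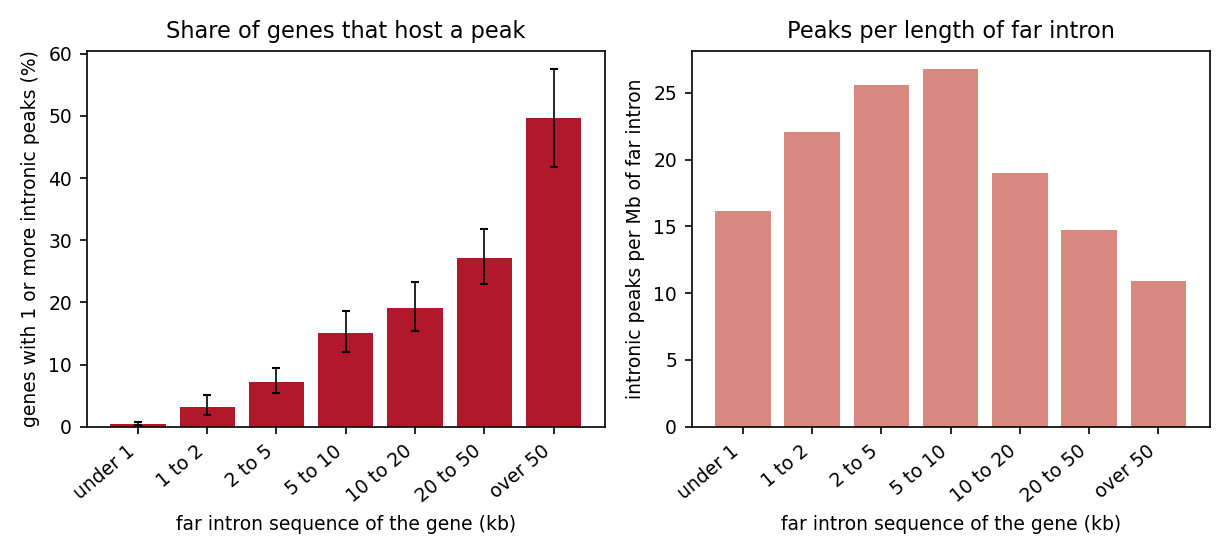
Genes grouped by their far intron sequence (x, kb), with the share that host 1 or more intronic peaks on the left (percent, bars with 95% Wilson intervals) and the intronic peaks per Mb of that sequence on the right. The share climbs with length to 49.7%, while peaks per Mb are highest at 26.8 in genes with 5 to 10 kb and 10.9 in the longest.

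A larger share of host genes than of other genes had a peak at their own promoter. A peak within 500 bp of one of their own TSSs was found for 134 of 394 hosts (34.01%, interval 29.5 to 38.8%), against 1089 of 5397 genes with far intron and no intronic peak (20.2%, 19.1 to 21.3%), and 21.1% of all such genes. Genes are not samples, so these shares were set side by side without a test. The share was 33.3% in hosts of 1 peak and 35.4% in hosts of 2 or more, with overlapping intervals. Within classes of far intron length hosts stood above other genes in each of the 7 classes, with 7 of 14 hosts against 21.6% of other genes under 1 kb and 30.8% against 14.3% at 20 to 50 kb. The gap was smaller at 2 to 5 kb (31.1% against 18.1%) and 5 to 10 kb (33.8% against 20.5%), and in these classes and at 1 to 2 kb the intervals overlapped. In the longest class the shares were 35.1% and 12.0%. AGO3, sbb, nAChRalpha4, d4, Atf6 and Trl had a promoter peak too, and ush, Nrt, trx, Kdm2 and Pak3 did not.

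Among functional groups, developmental transcription factors and signalling genes held 60 and 21 of the peaks and had larger host shares than all genes with far intron. Over all 5791 genes with far intron the host share was 6.80%, with 15.5 peaks per Mb of far intron. Of 92 transcription factor genes outside the homeodomain and Pax families with far intron, 30 were hosts (32.6%, interval 23.9 to 42.7%) with 60 peaks, at 29.4 peaks per Mb of their far intron. They were led by Trl (820.6), Hr3 (798.3) and sim, the midline regulator (498.2). Notch, EGFR, FGF, Wnt, Hedgehog and BMP signalling genes had 16 hosts of 64 (interval 16.01 to 36.8%), at 24.0 per Mb. Their highest were aos, which encodes a secreted EGFR inhibitor (559.0), Egfr itself (481.3) and the Wnt receptor gene fz (477.0). Both lists also hold longer far introns than the median gene, 13.1 and 8.55 kb. Of all genes with 10 to 20 kb, 19.03% were hosts, at 19.0 peaks per Mb, and with 5 to 10 kb 15.01%, at 26.8. Both host shares lay above those of the length class of their median. The density of the signalling genes lay below that of its class.

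Chromatin regulators had 8 hosts of 60 (13.3%, interval 6.91 to 24.2%, against 6.80% of all genes), and their 18 peaks lay in 0.190 Mb of far intron, or 94.8 per Mb. Led by trx (607.3), Kdm2 (366.4) and the cohesin loader gene Nipped-B (360.9), they also included JIL-1 (307.3), Psc (296.0), Mi-2 (242.1), Kdm4B (239.1) and kis (135.4), which were named after their values were seen. With trx and Kdm2 at 4 peaks each, these 2 genes held 8 of the 18. Axon guidance and neural adhesion genes had 12 hosts of 62 (19.4%) and 7.71 peaks per Mb, with a median of 30.1 kb of far intron per gene. Of all genes with 20 to 50 kb of far intron, 27.2% were hosts. Fas3 (280.8), the netrin receptor gene fra (268.9) and Sema1a (264.5) led them.

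The remaining lists lay nearer the average of all genes per length (15.5 peaks per Mb). Their host shares stand against 6.80% of all genes with far intron, whose median far intron was 0.567 kb. Of all genes with 5 to 10 kb, 15.01% were hosts, at 26.8 peaks per Mb. The ion channel, homeodomain, muscle and G protein lists had medians in that range (7.68, 9.39, 6.18 and 7.47 kb). Their host shares and densities lay below those of that length class, and the intervals of their host shares include 15.01%. Ion channels and neurotransmitter receptors had 6 hosts of 59 (10.2%), at 13.7 peaks per Mb, led by nAChRalpha4 (2555), Irk1 (274.5) and stj (197.1). Homeodomain and Pax factors had 7 of 59 (11.9%) at 15.9 per Mb, led by zfh1 (298.9), scro (296.2) and hth (210.9). Muscle and cytoskeleton genes had 7 of 56 (12.5%) at 13.3 per Mb, with the cofilin gene tsr (335.3), Dys (301.8) and Dhc36C (220.0). RNA-binding regulators had 9 of 45 at 9.08 per Mb, with shep (325.2), Rbfox1 (249.5) and how (188.5), and G protein and cyclic nucleotide signalling genes had 4 of 39 at 11.9 per Mb, with for (496.8), cta (260.3) and loco (144.4). Ribosomal, respiratory and other housekeeping genes had 2 of 42 (4.76%), eIF4EHP (174.3) and eIF5B (126.6), at 18.1 peaks per Mb. The lists together named 99 of the hosts and left 295 in none, so most host genes were outside them.

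Within the genes, peaks leaned towards the 5′ side and towards TSSs. The first intron, counted between merged exons, held 255 of the 592 (43.1%, interval 39.1 to 47.1%), against 24.3% of far intron bases. The median distance to the nearest TSS was 3.93 kb for the peaks and 6.55 kb over far intron bases. Peaks per Mb fell with distance, with 27.8 at 1 to 2 kb, 19.5 at 2 to 5 kb, 16.03 at 5 to 10 kb, 8.18 at 10 to 20 kb and 5.78 beyond 20 kb. The signal did not follow that order, with medians of 159.7, 171.1, 159.8, 145.9 and 195.4 over the same classes. Introns with a peak had a median length of 10.4 kb, and 304 peaks lay in introns of over 10 kb. Within its intron a peak lay at a median of 46.9% of the length from the 5′ end, 65 were within 500 bp of an exon and 26 within 200 bp.

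The centromere-proximal segments, which run to the centromeric end of each arm, held fewer intronic peaks per length but stronger ones. They held 75 of the 592 peaks (12.7%) on 18.2% of the far intron sequence, or 10.7 peaks per Mb against 16.4 elsewhere. Their median signal was 200.1, against 162.5 elsewhere. Intergenic peaks showed the same order, with 11.95 peaks per Mb in the segments against 14.5 elsewhere and medians of 220.0 against 164.0. At promoters the density went the other way, with 378.5 peaks per Mb in the segments and 97.1 elsewhere. The signal gap was larger there, with medians of 1611 in the segments and 197.9 elsewhere. Annotated transposable elements held 13 intronic summits (2.20%, against 7.39% of the sequence), all 13 in the segments, and the strongest of them was the nAChRalpha4 peak at 2555, in a G5 element. The 1360 family held 3, and F, G5, INE-1 and the overlapping pair GATE and Stalker4 held 2 each. Both peaks of Nipped-B lay in INE-1 elements, with signals of 360.9 and 170.3. Read mapping to repeats was not examined here, and its part in these values was not tested.

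The DRE, a promoter motif, was found at intronic summits in the segments and at none outside them. Within 100 bp of the summit, the DRE occurred at 10 of 75 intronic peaks in the segments (13.3%, interval 7.41 to 22.8%) and at 0 of 517 elsewhere, which allows a share of up to 0.580%. At promoter peaks it occurred at 9.29% in the segments and 9.34% elsewhere. Intergenic peaks had a like split, with the DRE at 6 of 107 in the segments (5.61%) and 1 of 284 elsewhere (0.352%). The split was thus not particular to introns. Of all windows of that length in far intron, 0.939% held the DRE in the segments and 0.287% elsewhere. The 0.287% lies under both limits, so the 0 of 517 shows no lack of the DRE outside the segments. The 10 hosts were CG17684 (signal 2091), Nipped-B (360.9), scro (296.2), the synaptic vesicle fusion gene Snap25 (290.0), CG40160 (276.4), lncRNA:CR46482 (218.9), nrm (174.5), Scp1 (154.5), l(2)41Ab (153.3) and the G protein gene cta (120.4). The split by location was made, and these hosts were named, after the counts were seen.

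Paired CGATA sites showed a like split, which includes that of the DRE. They were at 14 of 75 intronic summits in the segments (18.7%) and 13 of 517 elsewhere (2.51%), and in 4.56% and 2.54% of all far intron windows. Promoter peaks held them at 19.3% in the segments and 20.8% elsewhere, and intergenic peaks at 13.1% and 3.17%. Motif 1 was at 2 of 75 and 2 of 517 intronic summits, against 7 of 140 and 97 of 1424 promoter summits. A single DRE holds the CGATA letters on both strands and so counts as a pair. The 10 intronic DRE summits in the segments are thus among the 14, and this split is not independent of that of the DRE. Motifs were searched on both strands, and a match describes letters in a window, not a bound site.

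The CACTGAGAGAA word, chosen for being common at intronic summits, had a larger share at intergenic summits than at promoter summits. It lay within 100 bp of 22 of the 592 intronic summits (3.72%, interval 2.47 to 5.56%), in 0.253% of flanking windows 500 bp away and in 0.133% of all far intron windows. Intergenic summits held it at 3.32% and promoter summits at 0.512%. All 22 intronic cases were outside the segments (22 of 517, 4.26%). The segments had 0 of 75, whose interval reaches 4.87%, so a difference by location was not detectable, and 0.0203% of their far intron windows held the word. It was at 8 of 274 intronic summits on 2L with 3L (2.92%) and at 14 of 318 on 2R with 3R (4.40%, against 0.120% of windows), and the join was chosen over all 4 arms. Its parts, ACACTGAG and TGAGAGAA, were ranked on 2L with 3L only, and on 2R with 3R they were at 4.09% and 5.35% of intronic summits, against 0.516% and 0.670% of windows. In the strongest intronic peaks of replicate 1 alone the share was 3.05% and of replicate 2 alone 3.83%. Of 265 copies in far introns, 29 had a reproducible summit within 150 bp (10.9%, interval 7.73 to 15.3%). The share was 17.65% of 68 copies at promoters (interval 10.4 to 28.4%) and 9.09% of 264 copies elsewhere. For the DRE it was 1.24% of 806 copies in far introns and 16.8% at promoters, and for Motif 1 0.545% of 550 and 13.9%. The word was chosen for being common at these same intronic summits. Its intronic share therefore cannot be weighed against promoter summits, flanks or far intron windows, and no like search was made at promoter summits. Nor can its far intron share of copies be weighed against those of the DRE and Motif 1.

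Copies of this word were oriented. Each of the 22 lay upstream of the summit when read in its own direction, at 3 to 95 bp from its middle, with a median of 57 bp. Widening the search to 150 bp gave 29 copies beside intronic summits, 29 upstream of the summit and 0 downstream of it. In the lists of replicates 1 and 2 taken alone, 18 of 20 and 28 of 30 copies were upstream. Intergenic summits had 17 of 17 and promoter summits 9 of 11. The base before the word was A in 11 of the 22 and G in the other 11, and the base after it was A in 20. Peaks with the word were not strong, with a median of 157.9 against 166.1 without it, and the 22 lay in introns of 22 genes, among them the insulin-binding protein gene ImpL2 (332.8), the ETS factor gene aop with 2 such peaks (316.3 and 174.5), the RhoGAP gene cv-c (155.6) and the semaphorin gene Sema5c (134.2).

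**Figure D5:**
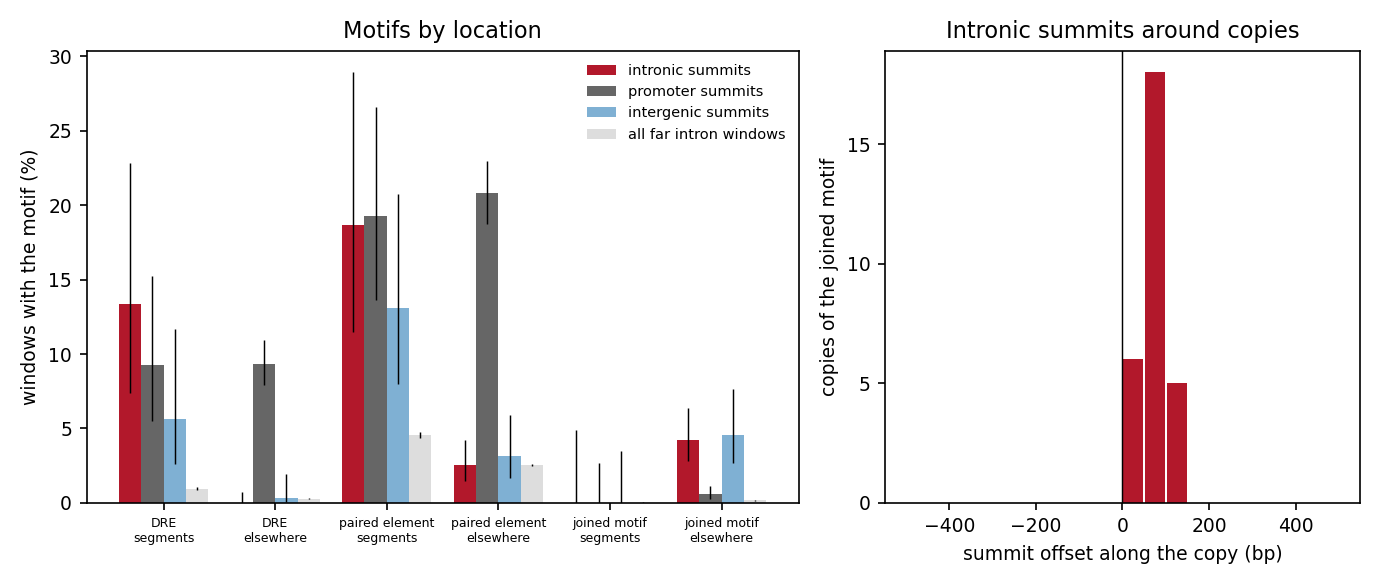
Left, share of windows within 100 bp of a summit that hold the DRE, the paired element (a pair of BEAF-32 cores) or the joined motif (the 11-base word), in centromere-proximal segments and elsewhere, with 95% Wilson intervals. A single DRE also counts as a paired element. Right, position of intronic summits relative to copies of the joined motif in 50-bp bins, along the copy's direction: all 29 copies within 150 bp have the summit on their downstream side.

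The base composition dipped at the summits. Windows of 100 bp on each side of intronic summits averaged 36.6% G+C, those 500 bp away 40.9% and all far intron windows 40.2%, while promoter summits averaged 36.9% and intergenic ones 37.2%. In 50-bp steps the intronic mean was 35.5% at the summit and rose to 43.7% at 200 bp on either side before returning to about 40% at 1000 bp. The difference between summits and flanks was -4.26 percentage points in the reproducible set. It was -1.35 points in the strongest peaks of replicate 1 alone and -5.19 points in those of replicate 2 alone, so the dip was larger in replicate 2. Among the other motifs, TATAAA was at 31.8% of intronic summits and in 24.0% of all far intron windows, and the Polycomb recruiter Pho's core GCCAT at 25.5% against 35.6%. GAGA repeats were at 3.72% of intronic summits, against 4.81% of flanks and 2.58% of all far intron windows. The Zelda site was at 0.507%, against 1.61% of flanks and 0.926% of those windows.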

How the data were processed

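What was measured was ChIP-seq enrichment of GFP-tagged CG17802 in 2 biological replicates of 1 group. Per the labels and file descriptions, the authors deposited dm6 lists of 30000 peaks with background for each replicate and for both pooled, and a set thresholded for reproducibility (IDR). How reads were aligned, how peaks were called and where IDR was thresholded is not given in the sources used here. Each peak's signal is as the authors deposited it, of unstated scale, and serves here to rank and to compare peaks within a list. The deposited −log10 q-value reached a ceiling of 3.66 for 2303 of the 3535 thresholded peaks and was used in an alternative only. The authors' other deposited value, the summit offset, placed the summits. Read depth per library is unknown, so no precision follows from it, and Wilson intervals (95%), like the floor of 3 counts used where none was found, reflect counting error alone.

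Positions were classed on Ensembl release 115 genes, exons and TSSs without transposable elements, and sequences came from the RefSeq dm6 FASTA. Coordinates are 1-based. Far intron is sequence that meets the rule. Centromere-proximal segments begin at 22.0 Mb on 2L and at 23.0 Mb on 3L, and end at 6.0 Mb on 2R and at 4.5 Mb on 3R. A gene's own promoter is 500 bp on either side of its TSSs. Motif windows span 100 bp on each side of the summit, and flanks are centred 500 bp away. The 8-mers were ranked by their excess at intronic summits over all far intron windows on 2L with 3L, and the join of the leading one that was found at most intronic summits of all arms was taken, less its variable first letter.

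Named genes were the hosts of the 20 strongest peaks, the 15 hosts with most peaks, up to 3 hosts per list and the peaks nearest the distance limit. Genes named for the DRE, for the 11-base word or beyond 3 per list were chosen after their values were seen. The members, lists and motifs were chosen with earlier results of these data known. No test was run between classes, because peaks and genes are not samples and there is 1 group; no p-value is given. The class rule gave the same answer as a direct scan at 600 of 600 random positions, and the motif search found 90 of 90 planted copies. Python 3.11.15, numpy 2.4.6, pandas 2.3.3 and scipy 1.17.1 were used. Alternatives varied the TSS distance, the peak set, the summit, the annotation, the hosts and the motif window, and left out each replicate.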

Additional observations from a re-analysis of the deposited data

How the results depend on the processing

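Across 15 alternative settings, 105 of 135 recomputed values stayed close to the reported one, 29 moved and 1 reversed. RefSeq annotation returned the same 592 peaks. With TSS distances of 500 and 2000 bp the intronic share was 26.0% and 15.2%, the signal ratio to promoter peaks 0.819 and 0.820, and the excess of own-promoter peaks in hosts 16.6 and 11.9 percentage points. At 2000 bp the signal ratio to intergenic peaks reversed, to 1.04, so these classes have no fixed order. Among the 1767 peaks of the whole set with the highest signal there were 240 intronic peaks (16.9%, 6.23 per Mb) in 191 hosts, 42 of them with 2 or more. There the ratios were 0.778 to promoter and 0.893 to intergenic peaks, 23.04% of hosts had a promoter peak and the excess was 11.4 points. Without the centromere-proximal segments the ratios were 0.821 and 0.991, the excess 11.5 points and the DRE share 0%. By −log10 q both ratios were 1.000, because the median of each class sits at the ceiling. Own promoters of 1000 bp gave an excess of 15.5 points. Windows of 50 bp held the 11-base word at 0.845% of summits, since copies lie a median of 57 bp away, and windows of 200 bp gave a G+C difference of -1.52 points. Leaving out each replicate gave density ratios to intergenic peaks of 1.05 to 1.14, signal ratios to intergenic peaks of 0.967 to 0.973, an excess of 14.6 to 16.7 points and G+C differences of -5.19 to -1.35 points. Counting transposable elements as exons, a setting added after seeing the data, left 579 peaks in 391 hosts. The cause was not tested where none is given. No paired analysis was possible because the series has 1 group, so no test could take a replicate block. Unknown read depth, a floor of 109.8 in signal and 1 fly line with 2 libraries limit what the counts can show.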
